A study of Mus musculus with 9 samples.

Results

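The genes described here are 38 interferon response and antigen presentation genes of the mouse, taken as a list of symbols and found in the deposited table of 48795 genes through the GENCODE M21 annotation of the build GRCm38. All 38 were matched to an identifier, and all 38 had a mean over the 9 libraries of at least 10 normalised counts, the minimum that kept 12741 genes for testing. By their known roles they comprised 5 genes of viral RNA and nucleic acid sensing (sensors and Trim25, an activator of a sensor), 5 transcription factors and 15 antiviral effectors. The others were 5 ubiquitin-like and ADP-ribosylation factors, 1 chemokine and 7 genes of antigen presentation.

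Interferons are cytokines released by infected cells. They act through receptors and JAK kinases on a complex that holds STAT2 and IRF9 and binds the interferon-stimulated response element (ISRE) in the promoters of antiviral genes. Several of these genes encode the sensors and factors that start the response, among them RIG-I (Ddx58), MDA5 (Ifih1) and Irf7, so that the pathway feeds back on itself. Interferons also raise the machinery that cuts proteins into peptides (Psmb8, Psmb9), moves the peptides into the endoplasmic reticulum (Tap1, Tap2) and shows them on MHC class I molecules (H2-K1, H2-D1, B2m) to T cells. Epithelial cells of the gut hold a basal level of many of these genes and use them against enteric viruses.

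Expression was measured by RNA-seq in organoids, three-dimensional epithelial cultures grown in Matrigel from colon crypts of wild-type (WT) mice and of mice without the aryl hydrocarbon receptor in epithelium (AHR KO). AHR is a transcription factor that is activated by ligands from diet, microbes and tryptophan, among them the high-affinity ligand FICZ (6-formylindolo[3,2-b]carbazole). Per the methods of the study, the AHR KO line carried a floxed Ahr allele deleted by a Cre under the Villin promoter, which is active in intestinal epithelium, and littermates without the deletion served as WT, on a C57BL/6 background. Ages of the animals are not given in the sources used here. All organoids were kept in WENR, a stem cell medium with Wnt-3A, Noggin, Rspondin-1 and EGF to which, per the methods, nicotinamide and inhibitors of p38 and ALK5 were added, so that every group carried these agents. The 4 groups were WT with the solvent DMSO (n = 2, replicates 2 and 3), WT with 5 nM FICZ (n = 3, replicates 1, 2 and 3), AHR KO with DMSO (n = 2, replicates 1 and 3) and AHR KO with 5 nM FICZ (n = 2, replicates 1 and 3), all exposed for 4 h. Replicate numbers are those of the sample descriptions, and the sample titles number some libraries otherwise. Values are given below in this order of replicates. The methods call the organoids biological replicates, while the labels do not say which animals the cultures came from, so that p-values measure the spread between these libraries.

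The deposited normalised counts summed to 23177058 to 25033827 per library, and across genes, which are not independent replicates, the 6 pairs of libraries within a group had an r of 0.986 to 0.9913 and the 30 pairs between groups one of 0.9639 to 0.9835. All 9 markers of epithelium were present, with a sum of 340490 to 385580 per library. Of 10 immune cell markers 4 (Ptprc, Cd3g, Adgre1 and Lyz2) were listed at 0 in every library, and Cd68 and Csf1r alone passed 10 in any. The summed immune markers ranged from 507 to 585 in WT DMSO, 482 to 534 in WT FICZ, 506 to 607 in AHR KO DMSO and 562 to 726 in AHR KO FICZ, nearly all of it Cd68, and their part in the results was not tested. The summed markers of fibroblasts (0.72 to 4.64) and of endothelium (0 to 5.27) were near 0. Ahr itself was at 787 and 858 in WT DMSO, 791, 798 and 783 in WT FICZ, 1404 and 1346 in AHR KO DMSO and 1443 and 1387 in AHR KO FICZ. It was thus higher in the AHR KO libraries, and a value for the gene as a whole does not check a deletion of part of it. Cyp1a1, the classical AHR target, was at 7797, 6987 and 7958 in WT FICZ against 100.3 and 139 in AHR KO FICZ, and Cyp1b1 was at 1632 and 1078 in WT DMSO against 34.5 and 25.4 in AHR KO DMSO, in the order the labels give. In bulk libraries such as these, fewer cells of a type and less RNA per cell cannot be told apart.

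No interferon was among the genes detected: all 10 interferon genes examined (Ifnb1, Ifna1, Ifna2, Ifna4, Ifna5, Ifnk, Ifne, Ifng, Ifnl2 and Ifnl3) were listed at 0 in all 9 libraries. The 38 response genes were nevertheless expressed. Their mean over the 9 libraries was 1000 normalised counts or more for 20 genes and under 100 for 3 (Cxcl10, Mx2 and Nlrc5). Per kilobase of the longest coding transcript, the highest levels were those of B2m (16452 normalised counts per kb), H2-K1 (9749) and H2-D1 (6848), the light and heavy chains of MHC class I. Next came the oligoadenylate synthetase-like gene Oasl2 (1899), Irf7 (1501), the master regulator of type I interferon genes, and Bst2 (1181), which encodes tetherin, a protein that holds budding virions at the cell surface. The lowest were Mx2 (10.1) and Nlrc5 (8.19), the transactivator of MHC class I genes. Mx2 is annotated as a polymorphic pseudogene, and the longest transcript of any type served where a gene had no coding one.

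Promoter windows, 250 bases before to 50 after a start site, were available from RefSeq (GRCm38.p6) for 27 of the 38 genes. The ISRE core, searched on both strands as GAAA, any 2 bases and GAAA again, was present in at least 1 window of 12 of the 27 genes (44.4%), against 3.99% of the 27025 genes in that table. The core of the AHR response element, GCGTG on either strand, was present in 15 of 27 (55.6%) against 35.2% of all genes, and the gamma-activated site TTCNNNGAA in 6 of 27 (22.2%) against 9.55%. A match describes the letters in these windows and not a site of binding. The windows printed here, 5′ to 3′ on the strand of the gene, are those of Ddx58, which differed in its response between genotypes, of Bst2 and Isg15, which differed between genotypes at both treatments, and of Tap1, which rose with FICZ in both genotypes. Capitals mark matches to the ISRE or GCGTG letters on either strand.
Ddx58: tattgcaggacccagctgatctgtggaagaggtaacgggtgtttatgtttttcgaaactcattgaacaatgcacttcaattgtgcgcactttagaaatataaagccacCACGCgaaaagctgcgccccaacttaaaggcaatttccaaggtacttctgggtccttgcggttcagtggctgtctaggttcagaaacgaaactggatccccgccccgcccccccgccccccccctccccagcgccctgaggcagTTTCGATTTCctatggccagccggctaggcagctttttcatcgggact
Bst2: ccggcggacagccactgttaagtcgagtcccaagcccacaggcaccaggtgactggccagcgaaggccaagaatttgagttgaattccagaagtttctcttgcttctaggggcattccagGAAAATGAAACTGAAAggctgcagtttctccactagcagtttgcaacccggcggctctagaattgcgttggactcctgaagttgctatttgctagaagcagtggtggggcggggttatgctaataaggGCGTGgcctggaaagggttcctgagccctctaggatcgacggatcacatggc
Isg15: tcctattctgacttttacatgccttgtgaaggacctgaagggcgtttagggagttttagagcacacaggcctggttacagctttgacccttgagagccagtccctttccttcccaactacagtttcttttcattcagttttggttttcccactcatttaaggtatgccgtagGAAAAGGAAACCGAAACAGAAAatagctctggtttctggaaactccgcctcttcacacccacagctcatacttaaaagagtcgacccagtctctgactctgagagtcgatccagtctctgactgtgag
Tap1: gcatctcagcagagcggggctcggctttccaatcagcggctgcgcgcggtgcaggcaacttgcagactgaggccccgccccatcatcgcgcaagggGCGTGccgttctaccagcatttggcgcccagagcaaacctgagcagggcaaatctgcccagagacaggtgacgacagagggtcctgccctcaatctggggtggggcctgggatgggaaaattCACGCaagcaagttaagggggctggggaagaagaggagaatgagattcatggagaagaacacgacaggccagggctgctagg
The Ddx58 window (chr4:40239776-40240075 on the minus strand) held 1 GCGTG match on the opposite strand, with its first base in the window at -142 from the start site, and 1 ISRE match at +3, where +1 is the first base at the start site. In the Bst2 window (chr8:71537423-71537722 on the minus strand) lay 2 overlapping ISRE matches at -130 and -124, a TTCNNNGAA match at -136 that overlaps the first of them, and 1 GCGTG match at -2. The Isg15 window (chr4:156200769-156201068 on the minus strand) carried 3 overlapping ISRE matches at -78, -72 and -66. For Tap1 (chr17:34187306-34187605 on the plus strand) there were 2 GCGTG matches, at -154 and -32, in the region that the gene shares head to head with Psmb9.

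The first comparison was between FICZ and DMSO in WT organoids, where the receptor is present. Ddx58 rose most among the 38 genes, Cxcl10 fell most, and 4 of the 7 antigen presentation genes rose by 1.18 to 1.33 times, calls that ended without WT DMSO replicate 3 and with transcript GC content and length removed. Of the 38 genes 10 changed (26.3%), 7 higher and 3 lower, beside 30.8% of all genes tested (15.1% higher and 15.7% lower). The median log2 difference was 0.09 over the 38 genes and -0.01 over all genes. A gene is called changed here where the Benjamini-Hochberg adjusted p over all 12741 genes, from limma on log2(normalised count + 1), was under 0.05 in a two-sided test. In AHR KO organoids, 8 of 38 changed with FICZ (21.1%), 7 higher and 1 lower, beside 19.7% of all genes (10.2% higher and 9.48% lower), with medians of 0.01 and -0.01. The shares of changed members were thus close to the background in both genotypes. Of the called genes, 7 were called in both genotypes (Bst2, H2-D1, H2-K1, Irf7, Tap1 and Tap2 higher, Xaf1 lower), 3 in WT but not AHR KO (Cxcl10, Ddx58 and Rtp4) and 1 in AHR KO but not WT (Dhx58). These sets are a description, given without the share of all genes in each. The difference between the genotypes in the FICZ change, tested as the interaction, was called for 1 gene of 38, Ddx58, beside 0.447% of all genes, and 2 of 38 had an unadjusted p under 0.05 in limma.

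**Figure D1:**
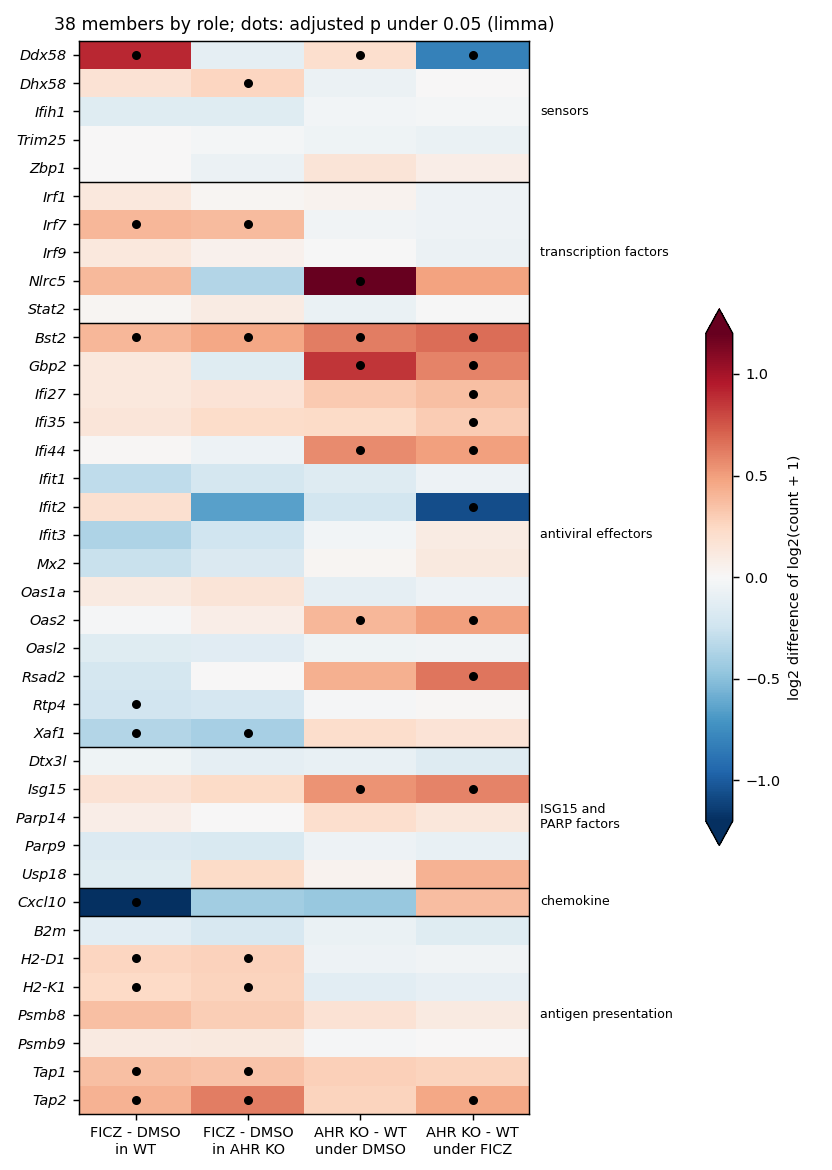
Colour map of the log2 difference of log2(normalised count + 1) for the 38 genes, grouped by role in rows, in 4 comparisons in columns, with a dot where the adjusted p was under 0.05. The red cell of Ddx58 in WT with FICZ (0.90) faces a blue one between genotypes under FICZ (-0.81), and the dots of the antiviral effectors lie mostly in the 2 columns on the right.

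Among the sensors, Ddx58 (ENSMUSG00000040296, chr4:40203773-40239828, minus strand) encodes RIG-I, which detects viral RNA with a free triphosphate end and signals through MAVS. It was at 2797 and 2620.3 normalised counts in WT DMSO, 5095, 5032 and 5074 in WT FICZ, 3066 and 3161 in AHR KO DMSO and 2889.8 and 2897 in AHR KO FICZ. The 3 WT FICZ libraries stood above the other 6, which lay between 2620 and 3161. With FICZ, the level in WT rose 1.87-fold, from 2709 ± 125 (SD, n = 2) to 5067 ± 31.8 (SD, n = 3) (log2 difference 0.90, SE 0.05, adjusted p = 4.46e-06). In AHR KO, both FICZ libraries were below both DMSO libraries, and the difference did not pass the test (log2 difference -0.11, SE 0.05, adjusted p = 0.182). The FICZ change differed between genotypes by 1.01 on the log2 scale (SE 0.07, 95% interval 0.85 to 1.17, adjusted p = 0.000155). The adjusted p of this difference was 0.000105 to 0.0024 over all alternatives run for it. Ddx58 had a transcript GC content of 46.6%, below the median of tested genes (49.8%).

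Of the other 4 genes grouped with the sensors, Dhx58 was called with FICZ in AHR KO and the rest in neither genotype. Dhx58 encodes LGP2, a relative of RIG-I without a signalling domain, and was at 717 and 699 in WT DMSO, 761, 836 and 803 in WT FICZ, 642 and 707 in AHR KO DMSO and 786 and 822 in AHR KO FICZ. The FICZ libraries were above the DMSO libraries in both genotypes. It rose in AHR KO (log2 difference 0.25, SE 0.08, adjusted p = 0.0491) at the edge of the threshold. That adjusted p was 0.0401 to 0.359 over the alternatives, over 0.05 on leaving out any library but WT FICZ replicate 2, and 0.0521 with a block for the replicate number. In WT the difference had the same sign without passing the test (0.18, adjusted p = 0.0947). The FICZ change of Dhx58 was not called different between the genotypes. Ifih1, which encodes the sensor of long double-stranded RNA MDA5, differed by -0.15 in WT and -0.14 in AHR KO on the log2 scale, neither of them called. Trim25, a ubiquitin ligase that activates RIG-I, and Zbp1, a sensor of Z-form nucleic acid, were not called in either (log2 differences -0.07 to 0.01).

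**Figure D2:**
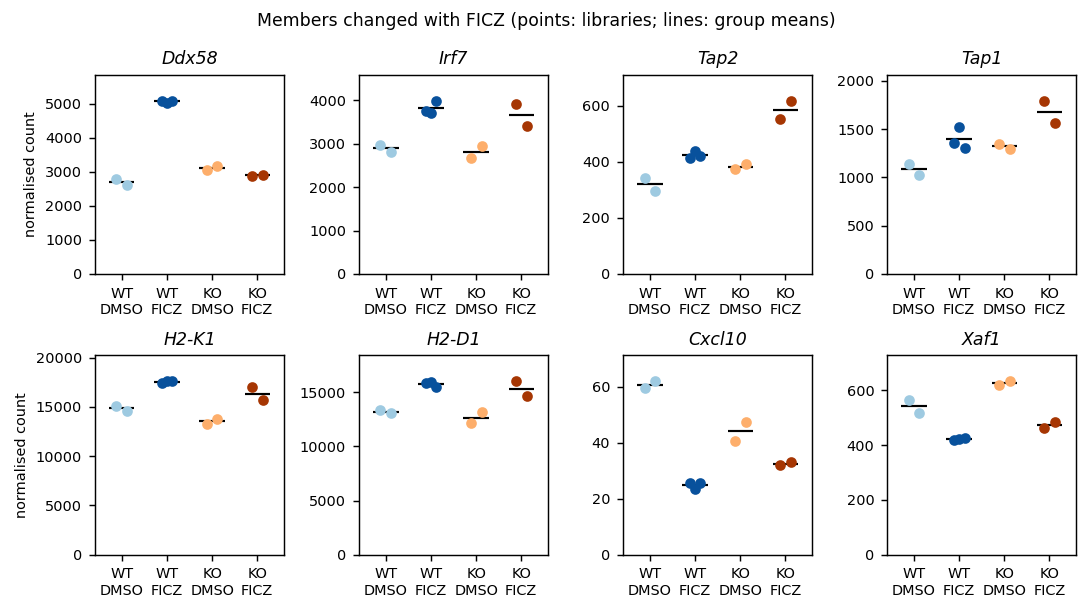
Normalised count in each library (points) and group mean (lines) for 8 genes that changed with FICZ in at least 1 genotype, by group on the horizontal axis. Ddx58 stands apart in the 3 WT FICZ libraries (5032 to 5095), while Irf7, Tap2, Tap1, H2-K1 and H2-D1 are higher, and Xaf1 lower, with FICZ in both genotypes.

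Of the 7 antigen presentation genes, 4 rose with FICZ in WT and the same 4 rose in AHR KO, in each case by less than 1.6-fold, beside 15.1 and 10.2% of all genes called higher. None of the 7 was called in either genotype once a spline on the GC content and length of transcripts was removed (by limma, with 0 in WT and 1 in AHR KO at an unadjusted p under 0.05). H2-K1, a heavy chain of classical MHC class I, was at 15125 and 14566 in WT DMSO and 17381, 17595 and 17580.4 in WT FICZ (log2 difference 0.24, SE 0.05, adjusted p = 0.00607). In AHR KO it was at 13291 and 13820.2 with DMSO and 16974 and 15722 with FICZ (log2 difference 0.27, SE 0.06, adjusted p = 0.00987). H2-D1, the other classical heavy chain, was at 13342 and 13049 in WT DMSO, 15803, 15919 and 15463 in WT FICZ, 12108 and 13198 in AHR KO DMSO and 15999 and 14662 in AHR KO FICZ. No FICZ library of either gene overlapped the DMSO libraries of its genotype. The change of H2-D1 was 1.19-fold in WT (adjusted p = 0.0078) and 1.21-fold in AHR KO (adjusted p = 0.0137). These heavy chain genes are near-identical over long stretches, so that the split of reads between them and other H2 genes is uncertain.

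Tap1 and Tap2 encode the subunits of the transporter that brings peptides to MHC class I. Tap1 was at 1140.2 and 1029.7 in WT DMSO and 1361, 1526 and 1301 in WT FICZ (log2 difference 0.36, SE 0.09, adjusted p = 0.0109), and at 1350.2 and 1299 in AHR KO DMSO and 1797 and 1569 in AHR KO FICZ (log2 difference 0.34, SE 0.09, adjusted p = 0.0313). Tap2 went from 342 and 296 in WT DMSO to 415, 437 and 421 in WT FICZ (log2 difference 0.41, SE 0.09, adjusted p = 0.00849). In AHR KO, Tap2 went from 373 and 392 to 553 and 618 (log2 difference 0.61, SE 0.10, adjusted p = 0.00435). Both genes were higher in every FICZ library than in every DMSO library of the same genotype. Tap1 overlaps Psmb9 by 212 bases on the opposite strand, and the libraries were stranded per the methods. The immunoproteasome subunits were not called: Psmb8 was at 333 and 288 in WT DMSO and 458, 393 and 352 in WT FICZ (0.36, adjusted p = 0.085), and Psmb9 differed by 0.10 in WT and 0.11 in AHR KO. B2m, the invariant light chain, differed by -0.12 in WT (15329 ± 1176 (SD, n = 2) against 14101 ± 1345 (SD, n = 3)) and by -0.19 in AHR KO, with overlapping libraries in WT and neither difference called. Leaving out WT DMSO replicate 3 ended the WT calls of H2-K1, H2-D1, Tap1 and Tap2 (adjusted p 0.063 to 0.096), and leaving out AHR KO DMSO replicate 1 ended those of all 4 in AHR KO (0.0515 to 0.131). Without AHR KO FICZ replicate 1 the adjusted p in AHR KO was 0.051 for H2-K1, 0.0706 for H2-D1 and 0.16 for Tap1, and without AHR KO DMSO replicate 3 it was 0.133 for Tap1.

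Of the 5 transcription factors, Irf7 alone changed with FICZ. It was at 2980.2 and 2808 in WT DMSO, 3768, 3705 and 3998 in WT FICZ, 2682 and 2951 in AHR KO DMSO and 3915 and 3421 in AHR KO FICZ, with no overlap of FICZ and DMSO within a genotype. The rise was 1.32-fold in WT (log2 difference 0.40, SE 0.07, adjusted p = 0.00257) and 1.3-fold in AHR KO (log2 difference 0.38, SE 0.08, adjusted p = 0.00983). The AHR KO call ended without AHR KO DMSO replicate 1 (adjusted p = 0.1) and without AHR KO FICZ replicate 1 (0.0542). Stat2 and Irf9, parts of the complex that binds the ISRE, and Irf1, which acts downstream of interferon gamma, differed by 0.02 to 0.13 in WT and 0.03 to 0.10 in AHR KO, none of them called. Nlrc5 was at 30.7 and 47.5 in WT DMSO and 35.9, 65.4 and 53.6 in WT FICZ, with overlap and no call (0.39, adjusted p = 0.37).

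Among the 15 antiviral effectors, Bst2 rose and Xaf1 fell with FICZ in both genotypes, and Rtp4 fell in WT. Bst2 was at 619.7 and 652 in WT DMSO and 804, 882 and 825 in WT FICZ, a change of 1.32-fold (log2 difference 0.40, SE 0.10, adjusted p = 0.0152). In AHR KO it was at 891 and 1057 with DMSO and 1204 and 1480.2 with FICZ, a change of 1.38-fold (log2 difference 0.46, SE 0.11, adjusted p = 0.0189). The 4 groups of Bst2 did not overlap, and lay from lowest to highest in the order WT DMSO, WT FICZ, AHR KO DMSO, AHR KO FICZ. Xaf1, which encodes a factor that opposes inhibitors of apoptosis, was at 565 and 518 in WT DMSO and 420.0, 422 and 427 in WT FICZ (log2 difference -0.35, SE 0.07, adjusted p = 0.00615), and at 621 and 633 in AHR KO DMSO and 465 and 486 in AHR KO FICZ (log2 difference -0.40, SE 0.08, adjusted p = 0.0101). Each FICZ library of Xaf1 was below each DMSO library of its genotype. Rtp4, which encodes a receptor transporter protein and is also induced by interferon, was at 1587 and 1491 in WT DMSO, 1359.9, 1252 and 1321 in WT FICZ, 1530.1 and 1510.3 in AHR KO DMSO and 1347 and 1292 in AHR KO FICZ. It fell in WT (log2 difference -0.23, SE 0.06, adjusted p = 0.0156) and differed by a like amount in AHR KO without passing the test (-0.20, adjusted p = 0.0519). That difference in AHR KO was called with a minimum mean of 100 (adjusted p = 0.0428), with the organoid line as a random effect (0.0448) and without WT FICZ replicate 2 (0.0352). Without WT DMSO replicate 2 the WT calls of Bst2 (adjusted p = 0.099), Xaf1 (0.07) and Rtp4 (0.13) ended, and that of Bst2 also without WT DMSO replicate 3 (0.0534). In AHR KO the calls of Bst2 and Xaf1 ended without AHR KO DMSO replicate 1 (0.162 and 0.0716), that of Xaf1 without AHR KO DMSO replicate 3 (0.0575) and that of Bst2 without AHR KO FICZ replicate 3 (0.121).

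Cxcl10, the only chemokine of the list, attracts T cells that carry CXCR3. It was at 59.3 and 61.9 normalised counts in WT DMSO, 25.5, 23.5 and 25.8 in WT FICZ, 40.6 and 47.4 in AHR KO DMSO and 31.9 and 33.2 in AHR KO FICZ. The FICZ libraries were below the DMSO libraries in both genotypes, with no overlap. Its level in WT was 2.38-fold lower with FICZ (log2 difference -1.25, SE 0.21, adjusted p = 0.00217), a call that held in every alternative in which it was tested (adjusted p 0.00162 to 0.0233). In AHR KO the difference was -0.42, adjusted p = 0.234, and the difference between the genotypes in the FICZ change was not called (-0.83, SE 0.32, 95% interval -1.54 to -0.13, adjusted p = 0.543). These are low counts, and with a mean under 100 the gene was not tested under the stricter filter on low values.

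The changes with FICZ that both genotypes shared moved with the base composition of the transcripts. The 6 genes that rose in both genotypes had a GC content of 55.3 to 57.3% (median 56.1%), against quartiles of 46.95, 50.76 and 53.65% over the 38 genes and 45.1, 49.8 and 54.7% over the genes tested. Only 2 further members, Psmb8 and Psmb9, were at 55% or more. Across genes, which are not independent, GC content and the FICZ log2 difference had a Spearman rho of 0.62 over the 38 genes and 0.495 over 12704 tested genes in WT, and of 0.775 and 0.583 in AHR KO, where the points of a comparison share its libraries. For the difference of the FICZ changes between genotypes, rho was -0.204 over the 38 genes and -0.0476 over all. When a spline on the length and the GC content of transcripts was removed from each library, 5 of 38 genes remained called in WT (Ddx58, Irf7 and Bst2 higher, Cxcl10 and Xaf1 lower), beside 17.6% of all genes. In AHR KO none of the 38 was then called by limma, with 5 at an unadjusted p under 0.05, beside 4.87% of all genes, and the difference between genotypes was called for Ddx58 alone, beside 0.510%. In WT this removal took the log2 difference of H2-K1 from 0.24 to 0.06 (adjusted p = 0.459), that of H2-D1 from 0.25 to 0.09 (0.325), that of Tap1 from 0.36 to 0.14 (0.371) and that of Tap2 from 0.41 to 0.20 (0.166). Rtp4 also lost its WT call, at -0.18 from -0.23 (adjusted p = 0.0579), and Ddx58 was at 1.01 (adjusted p = 2.51e-06). In AHR KO, H2-K1 went from 0.27 to 0.08 and Tap1 from 0.34 to 0.10, while Xaf1 was at -0.31 from -0.40 (adjusted p = 0.0563) and Bst2 at 0.35 from 0.46 (adjusted p = 0.0893). Of the other calls lost there, Tap2 was then at 0.38 (adjusted p = 0.0634), Irf7 at 0.22 (0.13), Dhx58 at 0.14 (0.359) and H2-D1 at 0.10 (0.42). The number of called members also fell to 5 in WT without WT DMSO replicate 3, beside 17.8% of all genes in the same fit. Without AHR KO DMSO replicate 1, it fell in AHR KO to 0 in limma, with 9 at an unadjusted p under 0.05, beside 3.29% of all genes called in that fit.

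**Figure D3:**
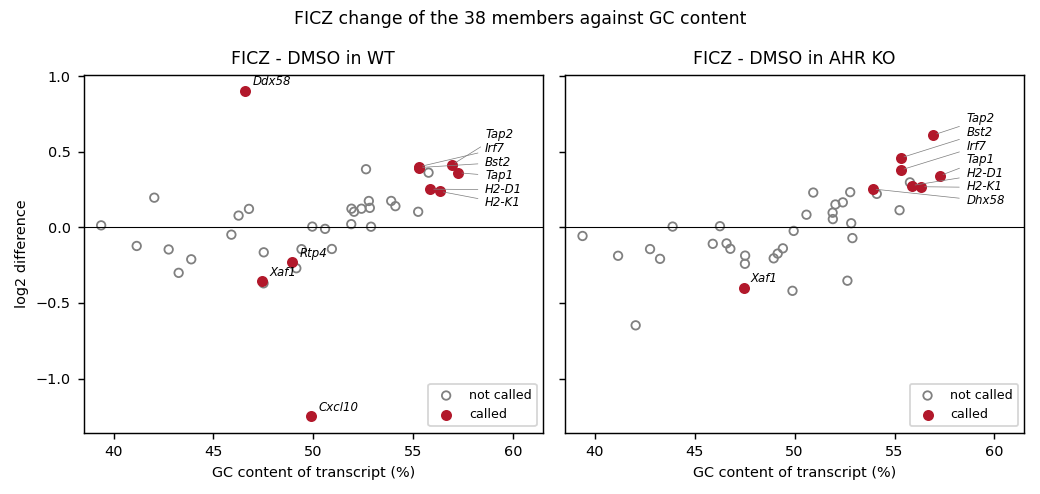
FICZ change (log2 difference, vertical axis) of the 38 genes against the GC content of their transcripts in percent (horizontal axis) in WT on the left and AHR KO on the right, with called genes filled in red. The 6 genes that rose in both genotypes lie between 55.3 and 57.3% GC, while Ddx58 in WT lies at 46.6% and far above its neighbours.

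The second question was how the genotypes differed at a given treatment. Under DMSO, 7 of the 38 genes differed (18.4%), all 7 higher in AHR KO, beside 9.05% of all genes (4.21% higher and 4.83% lower in AHR KO). Under FICZ, 11 differed (28.9%), 9 higher and 2 lower in AHR KO, beside 20.0% of all genes (9.48% higher and 10.5% lower). The median log2 difference over the 38 genes was 0.01 under DMSO and 0.04 under FICZ, beside -0.01 and -0.004 over all genes. Bst2, Gbp2, Ifi44, Isg15 and Oas2 were higher in AHR KO at both treatments. With the same spline removed, 6 of the 7 calls under DMSO and all 11 under FICZ remained, Nlrc5 was lost under DMSO (adjusted p = 0.0554), and Ifi27 under DMSO and Usp18 under FICZ were gained, beside 9.70% and 21.4% of all genes. They moved with single libraries: under DMSO the count was 0 in limma without AHR KO DMSO replicate 3 (10 at an unadjusted p under 0.05), beside 3.05% of all genes called in that fit. It was 2 without AHR KO DMSO replicate 1, WT DMSO replicate 2 or WT DMSO replicate 3, beside 3.55, 4.37 and 4.59%, and under FICZ it was 4 without AHR KO FICZ replicate 3, beside 10.4%.

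**Figure D4:**
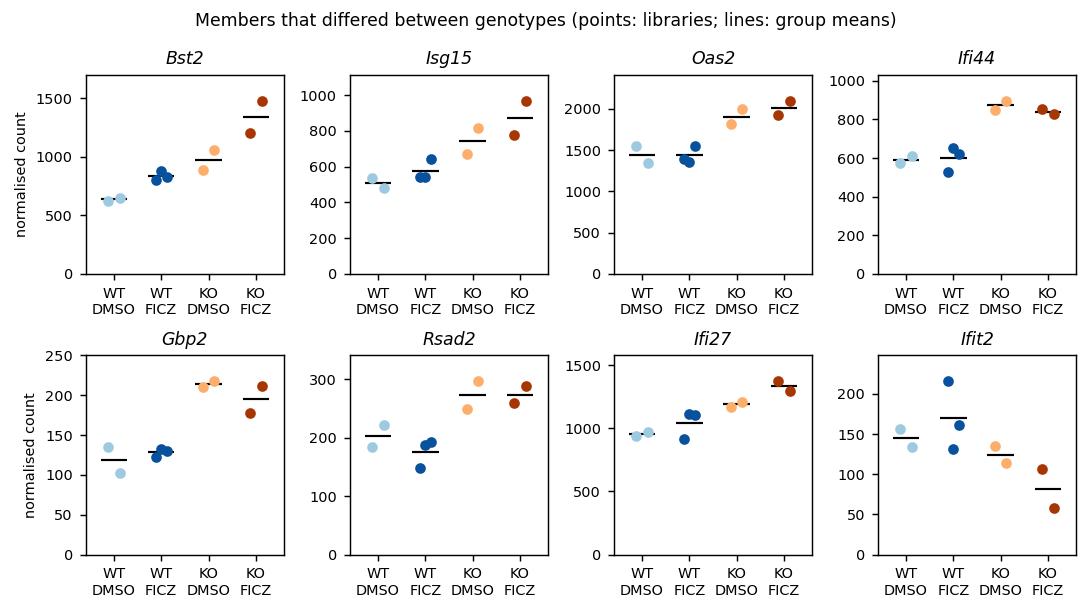
Normalised count in each library (points) and group mean (lines) for 8 genes that differed between genotypes, by group on the horizontal axis. Bst2, Isg15, Oas2, Ifi44 and Gbp2 are higher in all 4 AHR KO libraries than in the WT libraries of the same treatment, and Ifit2 is lowest in AHR KO FICZ.

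The levels of Bst2 in AHR KO were 1.53-fold those in WT under DMSO (log2 difference 0.61, SE 0.11, adjusted p = 0.00779) and 1.6-fold under FICZ (log2 difference 0.67, SE 0.10, adjusted p = 0.00117), with the library values given above. Isg15, the ubiquitin-like protein that is conjugated to viral and host proteins, was at 538 and 481 in WT DMSO, 671 and 814 in AHR KO DMSO, 541, 545 and 643 in WT FICZ and 778 and 969.9 in AHR KO FICZ. Every AHR KO library was above every WT library for Isg15. The difference was 1.45-fold under DMSO (log2 difference 0.54, SE 0.14, adjusted p = 0.0367) and 1.51-fold under FICZ (log2 difference 0.60, SE 0.13, adjusted p = 0.00777). Oas2, which makes the oligoadenylate that activates RNase L, was at 1548 and 1347 in WT DMSO and 1813 and 1994 in AHR KO DMSO (log2 difference 0.40, SE 0.09, adjusted p = 0.0239), and at 1396, 1362 and 1552 in WT FICZ and 1933 and 2102 in AHR KO FICZ (log2 difference 0.49, SE 0.08, adjusted p = 0.00247). Its WT and AHR KO libraries did not overlap.

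Ifi44, an antiviral gene that is induced by interferon, was at 572 and 611 in WT DMSO and 851 and 898 in AHR KO DMSO (log2 difference 0.56, SE 0.10, adjusted p = 0.00759), and at 527, 651 and 621 in WT FICZ and 855 and 826 in AHR KO FICZ (log2 difference 0.49, SE 0.09, adjusted p = 0.00446). Gbp2, a GTPase of the family that coats intracellular pathogens, was at 135 and 103 in WT DMSO and 211 and 217 in AHR KO DMSO, a difference of 1.81-fold (log2 difference 0.86, SE 0.16, adjusted p = 0.00972). Under FICZ, Gbp2 was at 123, 133 and 129.9 in WT and 178 and 212 in AHR KO (log2 difference 0.59, SE 0.15, adjusted p = 0.0189). The AHR KO libraries of both genes were above all WT libraries. Under DMSO, the calls ended without AHR KO DMSO replicate 3 for Bst2 (adjusted p = 0.0886), Isg15 (0.258), Oas2 (0.187), Ifi44 (0.0792) and Gbp2 (0.0826), and without AHR KO DMSO replicate 1 for Isg15 (0.0578), Oas2 (0.063) and Gbp2 (0.0627). They also ended without WT DMSO replicate 2 for Bst2 (0.0589), Isg15 (0.0863) and Ifi44 (0.0616), and without WT DMSO replicate 3 for Isg15 (0.187), Oas2 (0.164) and Gbp2 (0.072). Under FICZ, those of Bst2, Oas2 and Ifi44 held on leaving out any library, while those of Isg15 (0.0897) and Gbp2 (0.156) ended without AHR KO FICZ replicate 3, and that of Gbp2 without WT FICZ replicate 1 (0.0548).

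A further 5 genes were called between genotypes under FICZ and not under DMSO, where the difference between these comparisons was not called for any of them. Over all genes, too, more were called under FICZ (20.0%) than under DMSO (9.05%). Rsad2, which encodes viperin, was at 148, 187 and 192 in WT FICZ and 258 and 288 in AHR KO FICZ (log2 difference 0.64, SE 0.15, adjusted p = 0.0135), and at 184 and 222 in WT DMSO and 249.7 and 296 in AHR KO DMSO (0.43, adjusted p = 0.146). Ifi27 was at 919, 1115 and 1103 in WT FICZ and 1371 and 1298 in AHR KO FICZ (log2 difference 0.36, SE 0.09, adjusted p = 0.0152), and Ifi35 was at 977, 1035 and 962 in WT FICZ against 1222 and 1234 in AHR KO FICZ (log2 difference 0.31, SE 0.07, adjusted p = 0.0151). Tap2 was 1.38-fold higher in AHR KO FICZ than in WT FICZ (log2 difference 0.46, SE 0.09, adjusted p = 0.00647). In all 4 of these genes the AHR KO FICZ libraries were above the WT FICZ libraries. Ifit2, which binds viral RNA and blocks its translation, went the other way, with 216, 132 and 161 in WT FICZ and 106 and 58.5 in AHR KO FICZ, a level 2.09-fold lower in AHR KO (log2 difference -1.06, SE 0.26, adjusted p = 0.018). For Ifit2, the FICZ change differed between genotypes by 0.84 without passing the test (95% interval -0.03 to 1.72, adjusted p = 0.687). Without AHR KO FICZ replicate 3 the adjusted p was 0.107 for Rsad2, 0.0546 for Ifi27, 0.086 for Ifi35, 0.0728 for Tap2 and 0.165 for Ifit2. The calls ended without AHR KO FICZ replicate 1 for Ifi27 (0.092) and Ifi35 (0.0607), without WT FICZ replicate 1 for Ifit2 (0.0565) and without WT FICZ replicate 3 for Ifi35 (0.0525).

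Ddx58 was called in opposite directions at the 2 treatments. It was lower in AHR KO than in WT under FICZ by 1.75-fold (log2 difference -0.81, SE 0.05, adjusted p = 4.01e-06), and slightly higher in AHR KO under DMSO (log2 difference 0.20, SE 0.05, adjusted p = 0.0387). The FICZ call held in all alternatives (adjusted p 2.92e-06 to 0.000104). Under DMSO, the adjusted p ranged from 0.0165 to 0.235 over the alternatives, and the call ended without WT DMSO replicate 2 (0.068), WT DMSO replicate 3 (0.235), WT FICZ replicate 1 (0.0529), WT FICZ replicate 3 (0.0647), AHR KO DMSO replicate 1 (0.12) or AHR KO DMSO replicate 3 (0.228). It ended too with a block for the replicate number (0.0844), with no filter on low values (0.0723) and with only the groups compared (0.051). Nlrc5 was called under DMSO alone, with 30.7 and 47.5 in WT and 82.1 and 99.5 in AHR KO (log2 difference 1.22, SE 0.33, adjusted p = 0.0475), and was at 86.5 and 57.5 in AHR KO FICZ. The libraries of Nlrc5 did not overlap under DMSO, but its adjusted p was 0.0299 to 0.26 over the alternatives and over 0.05 without any 1 of the 4 DMSO libraries (0.063 to 0.26) or WT FICZ replicate 3 (0.0656), and 0.0554 with the spline removed. The call also ended with a block for the replicate number (0.0837), with no filter on low values (0.0968) and with quantile normalization (0.0595). Nlrc5 is known to act on the promoters of MHC class I genes, and a link between its level and theirs was not tested here. Under DMSO, the log2 difference between AHR KO and WT was -0.13 for H2-K1, -0.06 for H2-D1 and -0.08 for B2m, none of them called. Over the 7 antigen presentation genes 3 differences were positive and 4 negative. None was called, beside 9.05% of all genes, with 3 at an unadjusted p under 0.05 in limma. Tap1 differed by 0.29 (adjusted p = 0.0887). It was called with a block for the replicate number (0.0362), with only the groups compared (0.0411) and without WT FICZ replicate 2 (0.0499).

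In 18 of the 38 genes no comparison was called: B2m, Dtx3l, Ifih1, Ifit1, Ifit3, Irf1, Irf9, Mx2, Oas1a, Oasl2, Parp14, Parp9, Psmb8, Psmb9, Stat2, Trim25, Usp18 and Zbp1. This number is a description, given without the share of all genes called in no comparison. The log2 differences of these 18 genes in the 4 comparisons between groups lay between -0.37 (Ifit3 with FICZ in WT) and 0.41 (Usp18 between genotypes under FICZ). Usp18 encodes the protease that removes ISG15 and damps interferon signalling, and was at 335, 298 and 358 in WT FICZ and 416 and 465 in AHR KO FICZ (0.41, adjusted p = 0.0632), with no overlap, and was called in 4 alternatives (adjusted p of 0.0466 to 0.0499). Ifit1 and Ifit3, which bind viral RNA together with Ifit2, were measured in WT as follows. Ifit1 was at 723 and 765 with DMSO and 586, 592 and 634 with FICZ, and Ifit3 was at 324 and 329 with DMSO and 287, 193 and 291 with FICZ. Both were lower in every WT FICZ library than in WT DMSO, and neither difference was called (Ifit1 -0.30, adjusted p = 0.0748, Ifit3 -0.37, adjusted p = 0.157). Parp9 and Dtx3l encode partners in a complex that modifies histones and host proteins, and overlap by 682 bases on opposite strands. With FICZ, Parp9 differed by -0.16 in WT and -0.19 in AHR KO and Dtx3l by -0.05 and -0.11, none of these called. Parp14, a related enzyme, differed by 0.20 between genotypes under DMSO (4974 and 4536 in WT and 5415 and 5524 in AHR KO), with no overlap and an adjusted p of 0.065. Oas1a and the Ifit genes belong to families of close copies, whose reads the counting could have split. A p that misses the threshold does not show that these genes were equal between groups.

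The wider interferon and antigen presentation pathway was described from a list of 129 further genes, 107 of which passed the filter. Counts of these are given over the genes with a mean of 10 or more in both groups compared, since a gene that passed through 1 group alone had to differ. With FICZ, 15 of 102 were higher and 17 lower in WT (31.4% called, beside 31.4% of all such genes), and 14 of 107 were higher and 8 lower in AHR KO (20.6%, beside 20.0%). Between genotypes, 9 of 102 were higher and 6 lower in AHR KO under DMSO (14.7%, beside 9.04%), and 16 of 104 were higher and 14 lower under FICZ (28.8%, beside 19.8%). Single libraries moved these counts. In WT 15 were called without WT DMSO replicate 2 and 21 without WT DMSO replicate 3 (beside 15.6 and 17.8% of all genes in those fits), and in AHR KO 5 without AHR KO DMSO replicate 1 and 11 without AHR KO FICZ replicate 3 (beside 3.29 and 9.55%). Between genotypes under DMSO 5 were called without AHR KO DMSO replicate 3 and 8 without any other 1 of the DMSO libraries (beside 3.05 to 4.59%), and under FICZ 16 without AHR KO FICZ replicate 3 (beside 10.4%). With the spline removed 15 were called in WT and 6 in AHR KO (beside 17.6 and 4.87%). For the difference of the FICZ changes none of the 107 was called by limma, beside 0.447% of all genes, and 8 had an unadjusted p under 0.05, beside 7.47%.

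The list of guanylate-binding proteins and related GTPases, to which Gbp2 is akin, also held Cd274 and Ido1, which are not GTPases. Of its 13 tested genes, Cd274 among them, 10 under DMSO and 11 under FICZ had a mean of 10 or more in both genotypes. Among these 4 were higher and none lower in AHR KO under DMSO, and 3 were higher and 1 lower under FICZ, beside 9.04 and 19.8% of all such genes called. The 1 lower was Cd274, at 93.5, 80.3 and 79.1 in WT FICZ and 32.1 and 50.6 in AHR KO FICZ. Under DMSO 1 was higher without AHR KO DMSO replicate 3 and 2 without WT DMSO replicate 3, beside 3.05 and 4.59% of all genes called. Under FICZ 1 was higher without AHR KO FICZ replicate 3 and 2 without WT FICZ replicate 3, beside 10.4 and 14.1%. Gbp9 was at 135 and 109 in WT DMSO, 90.0, 95.9 and 79.1 in WT FICZ, 309.6 and 324 in AHR KO DMSO and 229.9 and 316 in AHR KO FICZ. It was 2.6-fold higher in AHR KO under DMSO (log2 difference 1.38, SE 0.18, adjusted p = 0.00151) and 3.04-fold under FICZ (log2 difference 1.60, SE 0.17, adjusted p = 0.00011). Of 41 other interferon-stimulated genes that passed the filter, 4 were higher and none lower in AHR KO under DMSO, beside 9.05% of all genes called. Under FICZ 6 were higher and 4 lower, beside 20.0%, so that the counts at both treatments were near the background. They were the same over the genes with a mean of 10 or more in both genotypes, which leaves out Ifi27l2a under DMSO (9.02 in WT). Under DMSO 2 were higher without AHR KO DMSO replicate 3, beside 3.05% of all genes called. Under FICZ 4 were higher and none lower without AHR KO FICZ replicate 3, beside 10.4%, and 7 and 1 without WT FICZ replicate 3, beside 14.1%. Ifi204, a sensor of DNA, was at 159.9 and 125 in WT DMSO and 289 and 307 in AHR KO DMSO (log2 difference 1.07, SE 0.16, adjusted p = 0.00303), and Slfn2 was at 849 and 843 in WT DMSO against 1608 and 1422 in AHR KO DMSO (log2 difference 0.84, SE 0.09, adjusted p = 0.000516). No WT library of Gbp9, Ifi204 or Slfn2 reached the AHR KO libraries. Helz2 rose with FICZ in both genotypes, by 1.44-fold in WT (adjusted p = 0.000678) and 1.47-fold in AHR KO (adjusted p = 0.00228).

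Of 15 receptors and signalling genes, 3 rose and 3 fell with FICZ in WT, beside 30.8% of all genes called, and 2 rose and 2 fell in AHR KO, beside 19.7%. With the spline removed 1 rose and 2 fell in WT, beside 17.6% of all genes, and none was called in AHR KO, beside 4.87%. Without WT DMSO replicate 2 the WT counts were 2 and 1, beside 15.6% of all genes called. The 2 that fell in AHR KO were not called without AHR KO DMSO replicate 1 or AHR KO FICZ replicate 3, beside 3.29 and 9.55%. Between genotypes none was higher and 3 were lower in AHR KO under DMSO, and 2 were higher and 2 lower under FICZ, beside 9.05 and 20.0% of all genes called. Under DMSO 1 was lower without WT DMSO replicate 2, AHR KO DMSO replicate 1 or AHR KO DMSO replicate 3, beside 4.37, 3.55 and 3.05%. Socs1, the feedback inhibitor of JAK kinases, was at 116 and 124 in WT DMSO and 239, 213 and 212 in WT FICZ (log2 difference 0.88, SE 0.12, adjusted p = 0.000775), and at 125 and 113 in AHR KO DMSO and 209 and 217 in AHR KO FICZ (log2 difference 0.83, SE 0.13, adjusted p = 0.00363). For Socs1 in AHR KO removal of the spline gave an adjusted p just over the threshold (adjusted p = 0.0523). Irf8, a transcription factor best known from myeloid cells, was at 842 and 965 in WT DMSO and 448 and 417 in AHR KO DMSO, and was lower in AHR KO at both treatments (under DMSO log2 difference -1.06, SE 0.14, adjusted p = 0.00159, under FICZ log2 difference -1.49, SE 0.13, adjusted p = 4.02e-05). Among 10 nucleic acid sensing genes, 1 rose and 3 fell with FICZ in WT, beside 30.8% of all genes called. Without WT DMSO replicate 2, 1 rose and none fell, beside 15.6%. With the spline removed 1 rose and 1 fell, beside 17.6%. The gene that rose was Mavs, the mitochondrial adaptor of RIG-I, at 846 and 926 in WT DMSO and 1244, 1219 and 1213 in WT FICZ (log2 difference 0.47, SE 0.06, adjusted p = 0.000723). In AHR KO, Mavs differed by 0.33, adjusted p = 0.0106, and by 0.21 with an adjusted p of 0.104 after removal of the spline. That AHR KO call of Mavs also ended without AHR KO DMSO replicate 1 (adjusted p = 0.102) and AHR KO FICZ replicate 3 (0.051). Over the 10 sensing genes, 2 rose and 1 fell with FICZ in AHR KO, beside 19.7% of all genes called. With the spline removed none was called there, beside 4.87%. Between genotypes none was called under DMSO by limma, with 1 at an unadjusted p under 0.05, beside 9.05% called. Under FICZ 3 were higher and 1 lower in AHR KO, beside 20.0%. Without AHR KO FICZ replicate 3, 2 were higher and none lower, beside 10.4%.

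The list of MHC class I and peptide loading also held the standard proteasome subunits Psmb5, Psmb6 and Psmb7 and the general chaperones Calr, Canx and Pdia3. These 2 sets are not specific to antigen presentation. Of the 21 tested genes of the list, 6 rose and 4 fell with FICZ in WT, beside 30.8% of all genes called. In AHR KO 6 rose and 3 fell, beside 19.7%. With the spline removed 3 rose and 4 fell in WT and 1 rose and 3 fell in AHR KO, beside 17.6 and 4.87%. Without AHR KO DMSO replicate 1 the AHR KO counts were 1 and 1, beside 3.29%, and without AHR KO FICZ replicate 1 they were 3 and 5, beside 12.2%. Without WT DMSO replicate 2, 4 rose and 2 fell in WT, beside 15.6%. Between genotypes 1 was higher and 2 lower in AHR KO under DMSO, and 1 higher and 5 lower under FICZ, beside 9.05 and 20.0% of all genes called. None was called under DMSO by limma without any 1 of the DMSO libraries, beside 3.05 to 4.59%. Under FICZ 1 was higher and 1 lower without AHR KO FICZ replicate 3, beside 10.4%. Psmb10, the third subunit specific to the immunoproteasome, was at 783 and 876 in WT DMSO and 1298, 1286 and 1333 in WT FICZ (log2 difference 0.66, SE 0.08, adjusted p = 0.000408), and at 728 and 819 in AHR KO DMSO and 1027 and 942 in AHR KO FICZ (log2 difference 0.35, SE 0.08, adjusted p = 0.0194). The WT call of Psmb10 held in all alternatives, and the AHR KO call ended without AHR KO DMSO replicate 1 (adjusted p = 0.161), without AHR KO FICZ replicate 1 (0.0957) and with the spline removed (0.313). Canx, the chaperone calnexin, fell with FICZ in both genotypes, from 20063 and 19634 to 15603, 15165 and 15436 in WT (log2 difference -0.37, SE 0.05, adjusted p = 0.000679) and from 21556 and 19994 to 15628 and 15420.4 in AHR KO (log2 difference -0.42, SE 0.05, adjusted p = 0.0019).

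The MHC class II list held class II molecules and partners, which dendritic cells, B cells and, after interferon gamma, epithelial cells express. It also held Ctss, Rfx5, Rfxap and Rfxank, which were present in every library here. Of its 11 genes 7 passed the filter. None of them was called with FICZ by limma in either genotype, with 2 at an unadjusted p under 0.05 in WT and 0 in AHR KO, beside 30.8 and 19.7% of all genes called. Of the 6 with a mean of 10 or more in both genotypes, none was higher and 1 lower in AHR KO under DMSO, and 1 was higher and 1 lower under FICZ, beside 9.04 and 19.8% of all such genes. The 1 higher was not called without AHR KO FICZ replicate 1, beside 15.2% of all genes called in that fit. Cd74, the invariant chain, was at 6.62 and 2.89 in WT DMSO, 6.70, 3.74 and 4.07 in WT FICZ, 33.4 and 44.3 in AHR KO DMSO and 47.3 and 58.2 in AHR KO FICZ. All WT libraries of Cd74 were under 10, so that it passed the filter only through the AHR KO libraries, and its levels are given as a description with no test. Ctss, a protease that trims the invariant chain, was at 862 and 882 in WT DMSO and 312 and 356 in AHR KO DMSO, and was lower in AHR KO at both treatments (under DMSO log2 difference -1.38, SE 0.15, adjusted p = 0.000495, under FICZ log2 difference -1.39, SE 0.14, adjusted p = 7.6e-05). The transactivator Ciita was between 0 and 2.06 in all libraries.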

How the data were processed

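The authors deposited normalised read counts, a signal that is never negative and not in whole numbers, for 48795 Ensembl genes. The submitters' processing notes name STAR 2.5.2a, RSEM 1.2.31, DESeq2 1.16.1 and GRCm38, and the methods name summarizeOverlaps on stranded libraries depleted of ribosomal RNA. Which scaling made the table is not given in the sources used here. As the signal is not counts, no count model was run. Identifiers were matched to GENCODE M21 (99.1%). Genes with a mean of 10 or more were tested on log2(signal + 1), a scale that understates changes of low genes, with limma 3.58.1 in R 4.3.3 (4 groups, all 9 libraries, trended variance, 5 contrasts, two-sided). Floors and counting intervals were not used, since the signal keeps no reads, and the precision comes from 2 or 3 libraries a group. The script was tested on simulated data. Members and lists were chosen with earlier results of these data known. Genes left out of the marker and wider lists are not reported here. Library values are given for members called in at least 1 contrast, and values for at most 3 called genes of each wider list. Alternatives were another pseudocount, filter, scaling or sample set, a block for the replicate number, a random effect for the organoid line, removal of a GC and length spline, and leaving out each library.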

Additional observations from a re-analysis of the deposited data

Results flagged for a closer look

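The FICZ change of Ddx58 differed between the genotypes by the test of that difference, with a log2 difference of 1.01 (WT minus AHR KO, adjusted p = 0.000155 in limma over 12741 genes). In WT the lowest of 3 FICZ libraries (5032) exceeded the higher DMSO library (2797), and in AHR KO the higher FICZ library (2897) lay below the lower DMSO library (3066). No group held 4 or more libraries, so that single libraries were not examined as outliers.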

How the results depend on the processing

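The count of genes called for the difference of the FICZ changes was 1 (Ddx58) in every alternative run. With the GC and length spline removed, 5 genes were called with FICZ in WT and 0 in AHR KO (5 at an unadjusted p under 0.05 in limma), and with no filter on low values 4 were called between genotypes under DMSO, beside 17.6, 4.87 and 3.61% of all genes in those fits. The cause was not tested in either case. On leaving out 1 library, the counts ranged from 5 to 11 with FICZ in WT, from 0 to 9 in AHR KO (9 at an unadjusted p under 0.05 at the lowest), from 0 to 9 between genotypes under DMSO (10 at the lowest) and from 4 to 13 under FICZ, with fewer libraries in each such fit. The shares of all genes ranged with them from 15.6 to 32.5, 3.29 to 23.2, 3.05 to 11.6 and 10.4 to 24.3%. With the replicate block the counts were 10, 7, 1, 6 and 12 in the order FICZ in WT, FICZ in AHR KO, their difference, genotype under DMSO and genotype under FICZ, beside 26.8, 17.6, 0.306, 8.26 and 19.3% of all genes. Same-numbered libraries deviated together at r of 0.0346 to 0.0498, and the labels do not say what a number marks, so the numbers were not taken to pair the libraries. Over 38 differences of single genes, no called value changed sign. Outside leave-one-out, 350 values kept their side of the threshold and 27 fell short of it, 14 of these with the spline removed, and 275 and 67 did so on leaving out a library. Calls were also gained: over the 5 comparisons, 12 differences of members not called above passed the threshold in some alternative, 6 of them outside leave-one-out. These 6 were Ifit1 with FICZ in WT (lowest adjusted p outside leave-one-out 0.0268), Rtp4 with FICZ in AHR KO (0.0428), Tap1 (0.0362) and Ifi27 (0.0206) between genotypes under DMSO, and Tap1 (0.0124) and Usp18 (0.0481) under FICZ. A fit to only the groups compared gives no test of the difference of the FICZ changes. The scaling of the table and its depth in reads limit the low genes (Cxcl10, Mx2, Nlrc5).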
